A study of Mus musculus with 6 samples.

Results

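Transcripts of 10 enzymes that make and conjugate bile acids were followed in mouse liver: Cyp7a1, Cyp8b1, Cyp27a1, Cyp7b1, Cyp39a1, Hsd3b7, Akr1d1, Amacr, Baat and Slc27a5. They were chosen by gene symbol, and all 10 were found among the 22183 symbols of the deposited count table and passed the filter on low counts that left 14681 genes. Liver RNA was sequenced in 6 libraries, 3 labelled PBS and 3 labelled DOX. Both groups were BucheKI/KI-Hep by genotype and had DDC as their treatment, and the series describes overexpression of butyrylcholinesterase in hepatocytes. DDC is the usual name of a porphyrin-raising compound that damages bile ducts, and DOX commonly stands for doxycycline, but the labels spell out neither, nor the prefix S2W of the sample titles. Every library therefore came from knock-in liver given DDC, and a liver of another genotype or without DDC is not analysed here. Age, sex, doses, the promoter that drives the knock-in and whether a sample is 1 animal or a pool are not stated in the sources used here. The p-values therefore speak of the spread between these samples only, and that spread may be technical. It is also not possible to separate raised butyrylcholinesterase from the DOX agent with these groups.

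Bile acids are made from cholesterol in hepatocytes, and they carry cholesterol out of the liver and help to absorb fat in the gut. The classic route opens with Cyp7a1, whose activity sets the rate of synthesis, whereas the alternative route opens with the mitochondrial sterol hydroxylase Cyp27a1 and goes on through the oxysterol hydroxylase Cyp7b1. Cyp39a1 serves a side branch, the use of an oxysterol formed mainly in brain. Hsd3b7 and Akr1d1 then modify the sterol ring, Cyp8b1 adds the hydroxyl group that makes cholic acid, Amacr flips the side chain before it is shortened in peroxisomes, Slc27a5 activates the acid with coenzyme A, and Baat joins it to taurine or glycine. Bile acids returning to the liver act on the nuclear receptor FXR (Nr1h4), which lowers Cyp7a1 and Cyp8b1 through the corepressor SHP (Nr0b2) and through the receptor pair Fgfr4 and Klb.

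The enzymes did not move as 1 block. In DOX livers Cyp39a1 (2.40-fold), Akr1d1 (1.30-fold) and Baat (1.25-fold) rose, whereas Cyp7b1 (1.49-fold) and Cyp7a1 (1.41-fold) fell. Of these, only Cyp39a1 was called in all 14 alternative fits. Akr1d1 and Baat each lost the call in 11 of the 14, Cyp7a1 in 3 and Cyp7b1 in 1. Cyp8b1 had the largest difference of the 10, a mean 3.50-fold lower, but varied so much between libraries that it did not pass the test. Cyp27a1, Hsd3b7, Amacr and Slc27a5 did not pass either. By edgeR's quasi-likelihood test 3 of the 10 enzymes were thus called higher and 2 lower (threshold of 0.05 on the adjusted p), 5 of 10 in all, where 13.5% of all genes tested were called higher and 14.0% lower, 27.5% in all. The median log2 fold change of the 10 was 0.07, against -0.01 over all genes tested. Read counts of the 10 enzymes lay between 96 and 26955 in a library. In bulk liver, fewer hepatocytes and less RNA per hepatocyte cannot be told apart.

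Library totals ranged from 40592030 to 41921404 counts in PBS and from 32476725 to 40298256 counts in DOX. The overexpressed gene checked the labels: Bche, the gene of butyrylcholinesterase, stood at 177 to 206 CPM in the PBS libraries and 1763 to 1938 CPM in the DOX libraries (log2 fold change 3.31, SE 0.14, edgeR adjusted p = 1.65e-07). CPM is the normalised read count, scaled to a common library total with TMM, which corrects for library composition. The TMM factors were 1.02 to 1.08 in PBS and 0.933 to 0.970 in DOX. Of 9 tested hepatocyte markers 3 rose and 0 fell, with summed levels of 93843 to 100584 CPM in PBS and 99214 to 122625 CPM in DOX. The hepatocyte sum was mostly Alb, which was not called (70083 to 72445 CPM in PBS and 70899 to 92734 CPM in DOX). Of 8 bile duct markers 2 fell (788 to 955 and 549 to 790 CPM), of 8 stellate cell markers 4 fell (1313 to 1593 and 809 to 1110 CPM), and of 8 endothelial markers 3 rose (222 to 247 and 258 to 306 CPM). The bile duct sum was mostly Spp1, which was not called (634 to 765 CPM in PBS and 424 to 634 CPM in DOX). Among 8 macrophage markers 1 rose and 1 fell (1636 to 1795 and 1530 to 1649 CPM), 2 of 5 tested lymphocyte markers fell (34.2 to 42.0 and 25.5 to 28.1 CPM), and 2 of 3 tested intestinal markers fell (45.5 to 53.7 and 11.9 to 24.4 CPM). The lymphocyte sum was mostly Ptprc (31.5 to 37.7 CPM in PBS and 24.8 to 26.7 CPM in DOX), which is not restricted to lymphocytes. The 2 lymphocyte markers called were Ptprc and Nkg7, the latter at 0.66 to 1.06 CPM in PBS and 0.24 to 0.35 CPM in DOX. Over all genes tested 13.5% were called higher and 14.0% lower. The intestinal sum was mostly Fabp2, which was called lower (40.3 to 48.1 CPM in PBS and 8.60 to 21.8 CPM in DOX). The defining intestinal gene Cdx1 had 0 counts in all libraries but DOX 3, which had 1. Mitochondrially encoded genes took 3.45 to 4.58% of counts in PBS and 5.11 to 6.81% in DOX. The part of these shifts in the results below was not tested.

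Promoter sequence is given for Cyp8b1, the enzyme that varied most between libraries, and for Hsd3b7. Neither enzyme passed the test, and a part of promoter sequence in their levels was not tested. RefSeq windows for GRCm38.p6 were found for 4 of the 10 genes (Cyp8b1, Akr1d1, Cyp27a1 and Hsd3b7), and for Cyp8b1 and Hsd3b7 the window ends at the RefSeq start of the gene. The windows of Akr1d1 and Cyp27a1 reach past the gene starts given below and are not used here. The 250 bases before the start are printed 5′ to 3′ on the strand of the gene, for Cyp8b1 at chr9:121916306-121916555 on the minus strand and for Hsd3b7 at chr7:127800359-127800608 on the plus strand. Capitals mark matches to any of 8 motifs searched on both strands.
Cyp8b1: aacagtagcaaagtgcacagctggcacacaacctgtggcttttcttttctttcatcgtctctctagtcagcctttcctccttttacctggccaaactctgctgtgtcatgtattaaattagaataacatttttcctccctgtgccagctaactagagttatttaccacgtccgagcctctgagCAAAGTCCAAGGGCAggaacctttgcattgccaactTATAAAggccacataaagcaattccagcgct
Hsd3b7: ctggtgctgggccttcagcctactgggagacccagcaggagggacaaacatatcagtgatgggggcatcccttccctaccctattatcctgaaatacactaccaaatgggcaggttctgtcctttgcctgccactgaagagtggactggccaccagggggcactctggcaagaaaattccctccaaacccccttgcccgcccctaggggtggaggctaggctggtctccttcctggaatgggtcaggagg
The first capital run of Cyp8b1 joins 2 overlapping matches, the HNF4 core CAAAGTCCA at 67 to 59 bases before the start and the motif CAAGGNCA of the receptor LRH-1 (Nr5a2), here CAAGGGCA, at 60 to 53 bases before it. The second is the TATA motif TATAAA, at 31 to 26 bases before the start. The same search was run on 32851 windows of this length, a set that does not cover every gene. Of these windows 0.384% held the HNF4 core, 5.53% the LRH-1 motif and 12.4% the TATA motif. The window of Hsd3b7 held 0 of the 8 motifs, which also included the direct repeat DR1, the inverted repeat IR1 and the HNF1 motif, the D-box TTATGTAA and the E-box CACGTG. A match is a run of letters and no evidence of binding.

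Levels of different enzymes were compared per length, on the deposited FPKM values (fragments scaled to gene length and to the library total). In PBS livers the order by mean was Slc27a5 at 240 ± 38.5, Cyp27a1 at 135 ± 21.9, Cyp7a1 at 70.0 ± 16.6, Hsd3b7 at 64.5 ± 3.77, Amacr at 63.6 ± 3.14, Baat at 59.7 ± 0.957, Akr1d1 at 44.7 ± 2.98, Cyp8b1 at 17.96 ± 8.88, Cyp39a1 at 13.5 ± 1.120 and Cyp7b1 at 5.09 ± 0.291 FPKM (SD, n = 3 each). Neighbours from Cyp7a1 down to Baat overlapped in their ranges, and so did Cyp8b1 and Cyp39a1. In DOX livers the top pair kept its place, with Slc27a5 at 270 ± 7.77 and Cyp27a1 at 146 ± 6.11 FPKM, and Cyp7a1 stood at rank 6 with 44.5 ± 0.971 FPKM (SD, n = 3). Around it lay Baat at 66.9 ± 3.77, Hsd3b7 at 52.3 ± 10.9, Akr1d1 at 52.1 ± 5.55 and Amacr at 43.2 ± 9.68 FPKM, where the ranges of neighbours overlapped except for Akr1d1 and Cyp7a1 (SD, n = 3 each). Cyp39a1, at 29.3 ± 7.34 FPKM, lay above Cyp8b1, at 4.55 ± 3.05 FPKM, with no overlap between their libraries (SD, n = 3), and Cyp7b1 was again the lowest at 3.06 ± 0.270 FPKM. Slc27a5 thus made up 31.6 to 36.1% of the summed FPKM of the 10 enzymes in PBS and 36.5 to 38.7% in DOX, while Cyp7a1 made up 8.19 to 12.0% and 6.04 to 6.64%. The middle of this order rests on the gene lengths behind the deposited values, which are 2.46 times the GENCODE M21 exon length for Akr1d1, 1.70 times for Baat and 0.585 times for Amacr. With GENCODE lengths, an alternative chosen after seeing the data, the PBS mean of Akr1d1 was 109.9, that of Baat 101.7 and that of Amacr 37.2, and Cyp7a1 had rank 5 in both groups instead of rank 3 in PBS and 6 in DOX.

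**Figure D1:**
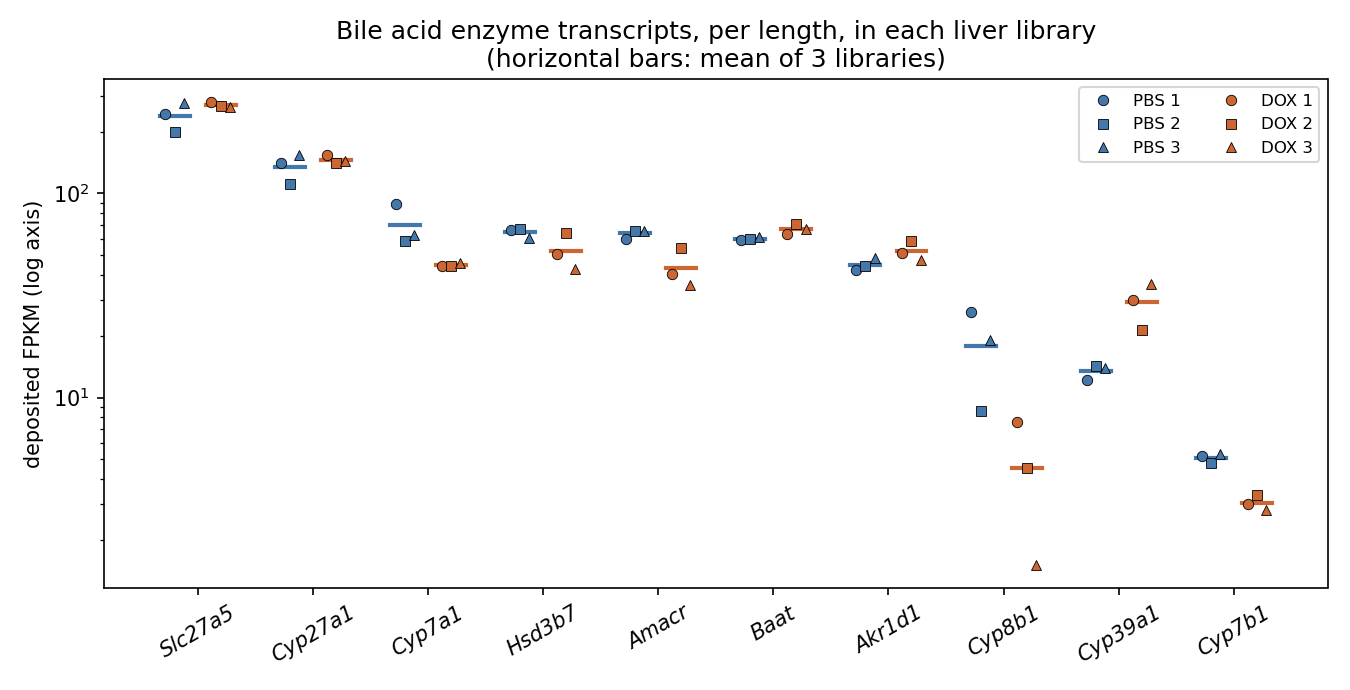
Deposited FPKM (log axis) of the 10 enzymes in each library, ordered by the PBS mean; blue symbols are PBS, orange symbols DOX, and bars are means of 3 libraries. The DOX symbols of Cyp7a1, Cyp7b1, Amacr and Cyp8b1 lie below all PBS symbols, those of Cyp39a1 and Baat lie above, and Cyp8b1 spreads from 1.52 to 26.2 FPKM.

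The entry enzyme Cyp7a1 (chromosome 4, 6265612 to 6275632 in GRCm38.p6, 6 exons) was measured at 347, 226 and 256 CPM in PBS 1 to 3 and at 195, 197 and 196 CPM in DOX 1 to 3. All DOX libraries lay below all PBS libraries. The PBS mean of 277 ± 63.2 CPM fell to 196 ± 0.632 CPM in DOX (SD, n = 3 each), a log2 fold change of -0.50 (SE 0.15, edgeR adjusted p = 0.0290). The DOX libraries nearly coincided, with a coefficient of variation (SD over mean) of 0.322% that undercut all but 0.0681% of tested genes, whereas in PBS it was 22.8%, above that of 80.6% of tested genes. The median over tested genes was 10.7% in PBS and 13.7% in DOX. In deposited FPKM Cyp7a1 stood at 43.9, 43.9 and 45.6 in DOX 1 to 3, a relatively wider spread, so the near coincidence depends on the scaling. With 3 libraries it may also be accidental, which was not tested. The size of the fall rests in part on PBS 1, the library with the highest level: without it the log2 fold change was -0.30 (adjusted p = 0.144). The call was also lost without DOX 1 (0.0792) or DOX 3 (0.0797).

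Cyp8b1 (chromosome 9, 121914356 to 121916305, a single exon) decides whether cholic acid is made. Its level was 47.9, 15.5 and 36.5 CPM in PBS 1 to 3 and 15.9, 9.43 and 3.05 CPM in DOX 1 to 3. The groups overlapped, with DOX 1 just above PBS 2, and DOX 3 was the lowest. The log2 fold change was -1.81 with an interval of -3.79 to 0.17 (95%; adjusted p = 0.151 by edgeR). Its coefficient of variation was 49.3% in PBS and 67.8% in DOX, above that of 95.7% and 97.5% of tested genes. The fold change was -1.40 without DOX 3 and -2.41 without DOX 1, on the log2 scale. With limma on log2(FPKM + 1) Cyp8b1 was called lower (-1.82, adjusted p = 0.0269), and over the 14 alternatives its adjusted p lay between 0.0269 and 0.310.

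Cyp27a1 (chromosome 1, 74713148 to 74737897, 9 exons), which opens the alternative route, did not pass the test. It stood at 314, 245 and 360 CPM in PBS 1 to 3 and at 391, 363 and 356 CPM in DOX 1 to 3, with PBS 3 inside the DOX range. The interval of its log2 fold change ran from -0.04 to 0.59 (95%; adjusted p = 0.181 by edgeR). PBS 2 was the lowest PBS library for Cyp27a1 as it was for Cyp7a1, Cyp8b1, Cyp7b1 and Slc27a5.

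Its partner Cyp7b1 (chromosome 3, 18071944 to 18243890, 6 exons), the oxysterol hydroxylase of that route, was the lowest of the 10 per length. Levels were 11.8, 10.7 and 12.7 CPM in PBS 1 to 3 and 7.81, 8.75 and 7.08 CPM in DOX 1 to 3, with no overlap. Cyp7b1 fell by 0.58 on the log2 scale (SE 0.14, edgeR adjusted p = 0.0127), and the adjusted p was 0.0552 without PBS 3. Mouse Cyp39a1 (chromosome 17, 43667372 to 43751431, 12 exons), the hydroxylase of the oxysterol from brain, went the other way. Cyp39a1 stood at 35.6, 41.3 and 42.7 CPM in PBS 1 to 3 and at 99.7, 71.7 and 115.7 CPM in DOX 1 to 3. Even DOX 2, the lowest of its group, was above every PBS library, and the log2 fold change was 1.26 (SE 0.16, edgeR adjusted p = 0.000622). Cyp39a1 was the only 1 of the 10 called in all 14 alternatives, with log2 fold changes of 1.03 to 1.45.

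**Figure D2:**
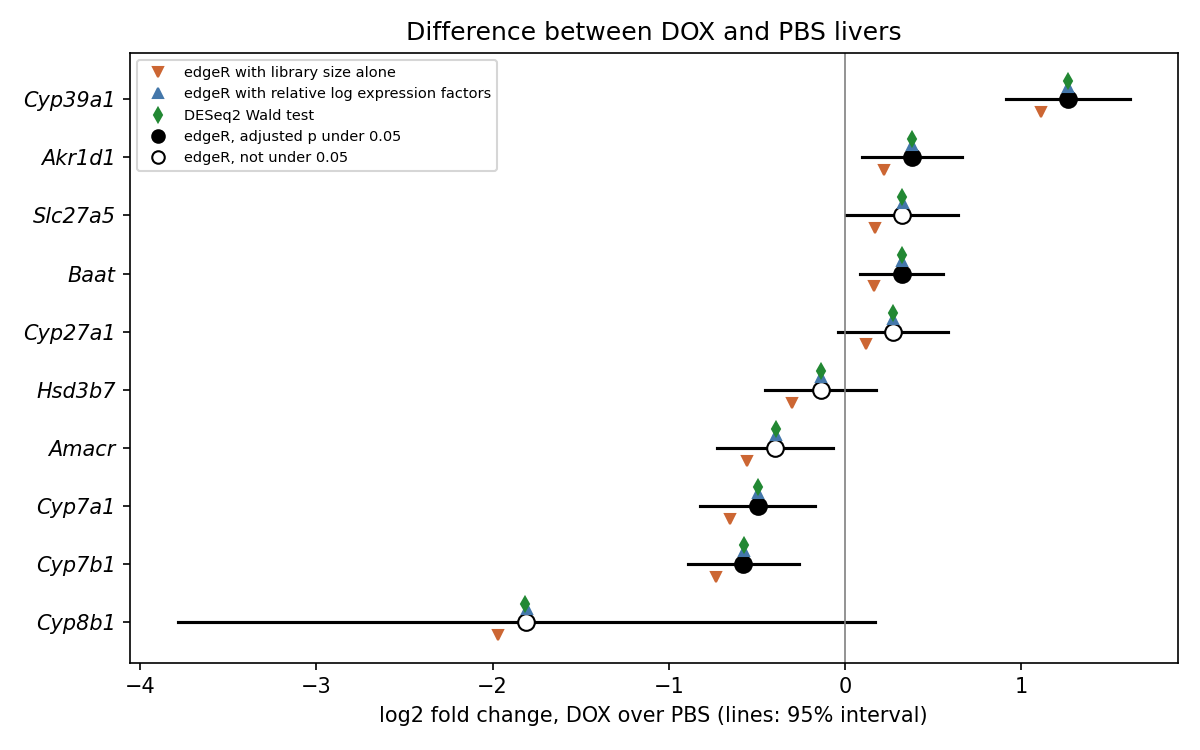
Log2 fold change of DOX over PBS for each enzyme, with lines for the 95% interval; filled circles passed an edgeR adjusted p of 0.05, open ones did not, and small symbols give the same value under other scalings or DESeq2. Scaling by library size alone moves every enzyme to the left, and each keeps its sign under it.

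Of the ring-modifying enzymes Akr1d1 was called and Hsd3b7 was not, and a difference between them was not tested. Hsd3b7 (chromosome 7, 127800609 to 127803802, 7 exons), the dehydrogenase that acts after both entry routes, was even in PBS, at 125, 124 and 119 CPM, and uneven in DOX, at 108, 138 and 87.9 CPM. Its groups overlapped, with a log2 fold change of -0.14 (95% interval -0.46 to 0.18, edgeR adjusted p = 0.505) that was 0.0037 without DOX 3. In GENCODE M21 a predicted gene on the same strand and a transcript on the opposite strand overlap Hsd3b7, and neither symbol is in the count table; how shared reads were counted is not stated there. Akr1d1 (chromosome 6, 37529978 to 37574921, 9 exons), the reductase that removes the ring's double bond, was at 281, 289 and 335 CPM in PBS 1 to 3 and 386, 444 and 347 CPM in DOX 1 to 3. The groups did not overlap in CPM, though they did in the deposited FPKM, which carry no correction for composition (48.0 in PBS 3 and 47.3 in DOX 3). Akr1d1 rose by 0.38 on the log2 scale with an edgeR adjusted p of 0.0497, at the edge of the threshold. It passed in 3 of the 14 alternatives. Dropping PBS 1 gave an adjusted p of 0.178, dropping PBS 2 gave 0.151, dropping PBS 3 gave 0.0527, dropping DOX 1 gave 0.0942 and dropping DOX 2 gave 0.0869.

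Of the side-chain and conjugation enzymes, Amacr (chromosome 15, 10981756 to 10996624, 5 exons), the racemase, stood at 85.5, 92.4 and 97.9 CPM in PBS 1 to 3 and at 65.1, 88.4 and 55.8 CPM in DOX 1 to 3. DOX 2 reached into the PBS range, whereas for Hsd3b7 it lay above every PBS library. The log2 fold change was -0.40 (95% interval -0.73 to -0.07, edgeR adjusted p = 0.0712). Amacr was called lower in 5 of the 14 alternatives, among them the fit without DOX 2 (-0.59, adjusted p = 0.00218) and scaling by library size alone (-0.56, 0.0119).

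Slc27a5 (chromosome 7, 12988346 to 12998192, 10 exons), the bile acid coenzyme A ligase, was the most abundant of the 10 transcripts per length. It was at 530, 430 and 631 CPM in PBS 1 to 3 and at 692, 664 and 635 CPM in DOX 1 to 3, with a gap of only a few CPM between PBS 3 and DOX 3. The log2 fold change was 0.32 (95% interval 0.0034 to 0.64, edgeR adjusted p = 0.121), so Slc27a5 was not called. Baat (chromosome 4, 49489416 to 49507915, 4 exons), which completes conjugation, varied less than Slc27a5 in PBS (4.64% against 19.0%, coefficient of variation) and more in DOX (6.24% against 4.28%). Its levels were 182, 182 and 197 CPM in PBS 1 to 3 and 222, 250 and 229 CPM in DOX 1 to 3, with no overlap. Baat rose by 0.32 on the log2 scale (SE 0.11, edgeR adjusted p = 0.0450). Each library was needed for this call: the adjusted p became 0.154, 0.143 and 0.0746 when PBS 1, 2 or 3 was dropped and 0.0640, 0.0632 and 0.0815 when DOX 1, 2 or 3 was dropped. Scaled by library size alone, which moved the median of all genes to -0.16, the log2 fold change was 0.16 for Baat (adjusted p = 0.243) and 0.22 for Akr1d1 (0.177).

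Across the 10 enzymes the groups did not overlap for 6, Cyp7a1 and Cyp7b1 below and Cyp39a1, Akr1d1, Baat and Slc27a5 above, where 22.3% of all genes tested lay below and 21.8% above, 44.1% together. On the deposited FPKM scale, with no correction for composition, Amacr (DOX at most 54.1, PBS at least 60.0) and Cyp8b1 (DOX at most 7.62, PBS at least 8.59) also lay below without overlap, while Akr1d1 and Slc27a5 overlapped. DOX 3 was the lowest DOX library for 7 of the 10 enzymes and DOX 2 the highest for 6. For Cyp7a1, 1 of these 6, the margin was small (196.6 CPM in DOX 2 against 196.2 CPM in DOX 3). For Cyp39a1 DOX 3 was highest and DOX 2 lowest. The share of all tested genes with the same order was not computed, so these counts only describe the 10 enzymes.

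Ratios of FPKM within a library need no scaling between libraries. Of 4 ratios compared, with 3 libraries against 3 the smallest p a two-sided exact permutation test can give is 0.1. Per unit of Cyp7a1, the classic entry enzyme, Cyp27a1 stood at 1.57, 1.89 and 2.45 in PBS 1 to 3 and at 3.48, 3.21 and 3.16 in DOX 1 to 3, a mean 1.69-fold higher with no overlap (exact p = 0.1, adjusted p = 0.4 over the 4 ratios). Cyp8b1 per unit of Cyp7a1 was 0.295, 0.147 and 0.305 in PBS 1 to 3 and 0.174, 0.103 and 0.0332 in DOX 1 to 3, with DOX 1 above PBS 2 (exact permutation p = 0.2, adjusted p = 0.4). The mean log2 difference of this ratio was -1.49, and -0.82 without DOX 3. The ratio of Cyp7a1 to Cyp7b1 lay between 11.8 and 17.1 in PBS and between 13.1 and 16.2 in DOX (exact permutation p = 0.6, adjusted p = 0.8). Baat over Slc27a5 lay between 0.220 and 0.299 in PBS and between 0.226 and 0.265 in DOX (exact permutation p = 1.0, adjusted p = 1.0). The pair of oxysterol hydroxylases was set side by side after its values were seen and was not tested: Cyp39a1 over Cyp7b1 was 2.36, 3.01 and 2.63 in PBS 1 to 3 and 10.02, 6.43 and 12.8 in DOX 1 to 3.

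**Figure D3:**
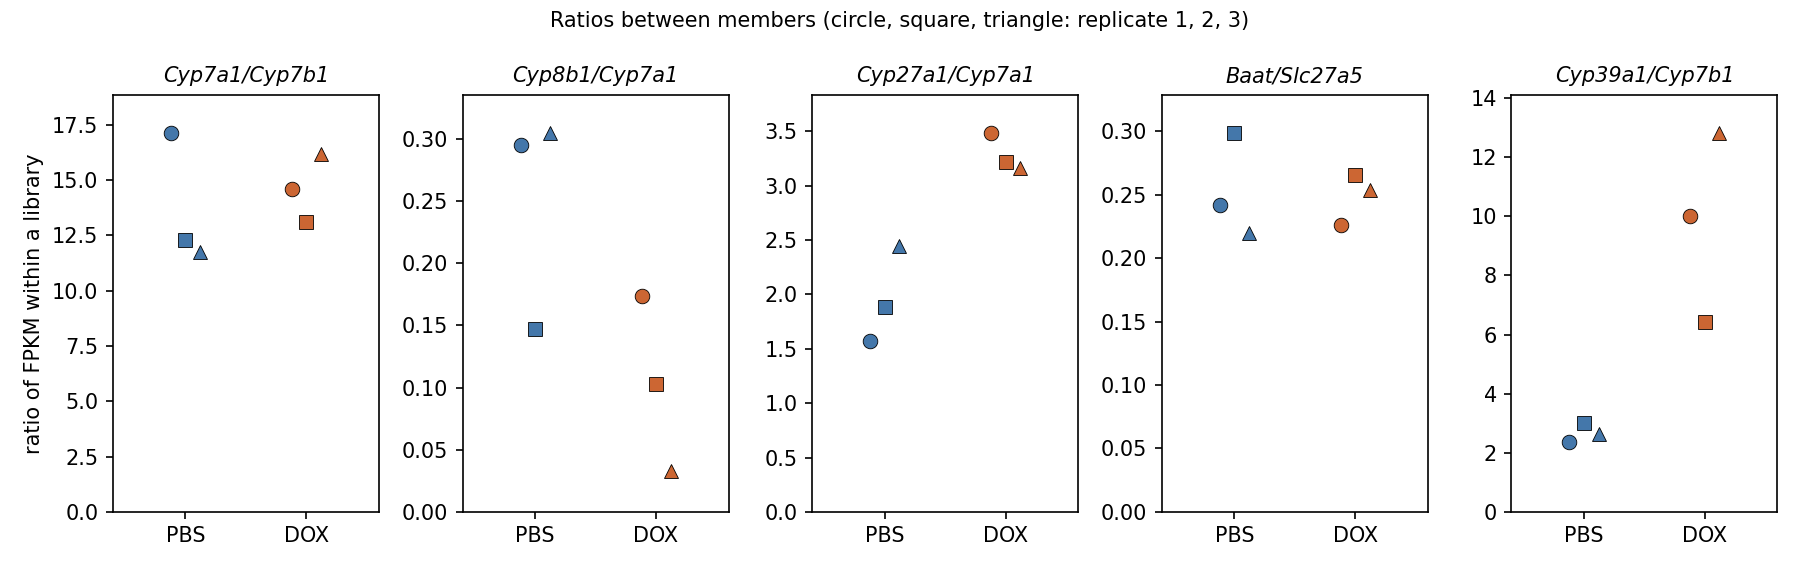
Ratio of FPKM between pairs of enzymes within each library (linear axes from 0), with replicates 1, 2 and 3 as circle, square and triangle. Cyp27a1 over Cyp7a1 and Cyp39a1 over Cyp7b1 are higher in every DOX library than in every PBS library, and the other 3 ratios overlap.

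Other genes of bile acid synthesis were then counted. Of 13 such genes, all of them tested, 2 rose and 5 fell, with a median log2 fold change of -0.39 against -0.01 over all genes. Over all genes tested 13.5% were called higher and 14.0% lower. Those that fell were Acnat1, an acyltransferase related to Baat, the peroxisomal importer Abcd3, the side-chain enzyme Hsd17b4, the thioesterase Acot8 and the ligase Slc27a2. Acnat1 went from 45.8, 58.8 and 59.9 CPM in PBS 1 to 3 to 28.5, 33.4 and 19.7 CPM in DOX 1 to 3, a 2.01-fold fall (edgeR adjusted p = 0.00362). Abcd3, Hsd17b4 and Acot8 had log2 fold changes of -0.65, -0.59 and -0.63 and, like Acnat1, were called in all 14 alternatives. Slc27a2 (-0.39) was lost in every fit that left out a library, with adjusted p-values of 0.0791, 0.0652 and 0.119 on dropping PBS 1, 2 or 3 and 0.0728, 0.0550 and 0.0576 on dropping DOX 1, 2 or 3.

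Acox2, the peroxisomal oxidase that follows Amacr, rose from 213, 222 and 231 CPM in PBS 1 to 3 to 311, 364 and 304 CPM in DOX 1 to 3 (log2 fold change 0.55, edgeR adjusted p = 0.00578). Cyp2a12, which hydroxylates secondary bile acids in mice, rose as well, from a PBS mean of 631 ± 25.2 CPM to a DOX mean of 940 ± 44.2 CPM (SD, n = 3 each; edgeR adjusted p = 0.00514). Both were called in all 14 alternatives. Cyp2c70, which makes the muricholic acids of mice, was not called, at 418, 313 and 423 CPM in PBS 1 to 3 and 388, 470 and 218 CPM in DOX 1 to 3. Its log2 fold change was -0.10 (95% interval -0.69 to 0.49), and 0.16 without DOX 3. Acnat1 has a close copy, Acnat2, so its count is uncertain where reads match both.

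Microsomal P450 enzymes such as Cyp7a1 and Cyp8b1 take electrons from Por, and some also from Cyb5a, whereas mitochondrial Cyp27a1 uses Fdx1 and Fdxr. Of 5 genes of electron transfer, Por and Cyb5a rose and 0 fell, where 13.5% of all genes tested were called higher and 14.0% lower. Scaling by library size alone gave 0 of the 5 higher and 1 lower, and limma on FPKM 0 higher and 0 lower. Por went from 892, 820 and 1140 CPM in PBS 1 to 3 to 1306, 1326 and 1554 CPM in DOX 1 to 3 (log2 fold change 0.55, edgeR adjusted p = 0.0199), with no overlap. On dropping PBS 1, PBS 2 or DOX 3 its adjusted p became 0.0863, 0.0880 and 0.0722. Cyb5a had a log2 fold change of 0.54 (adjusted p = 0.0257), which became 0.0729, 0.104, 0.0731 and 0.0934 on dropping PBS 1, PBS 3, DOX 1 or DOX 3. Fdx1 and Fdxr had log2 fold changes of 0.05 and -0.09 and did not pass.

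**Figure D4:**
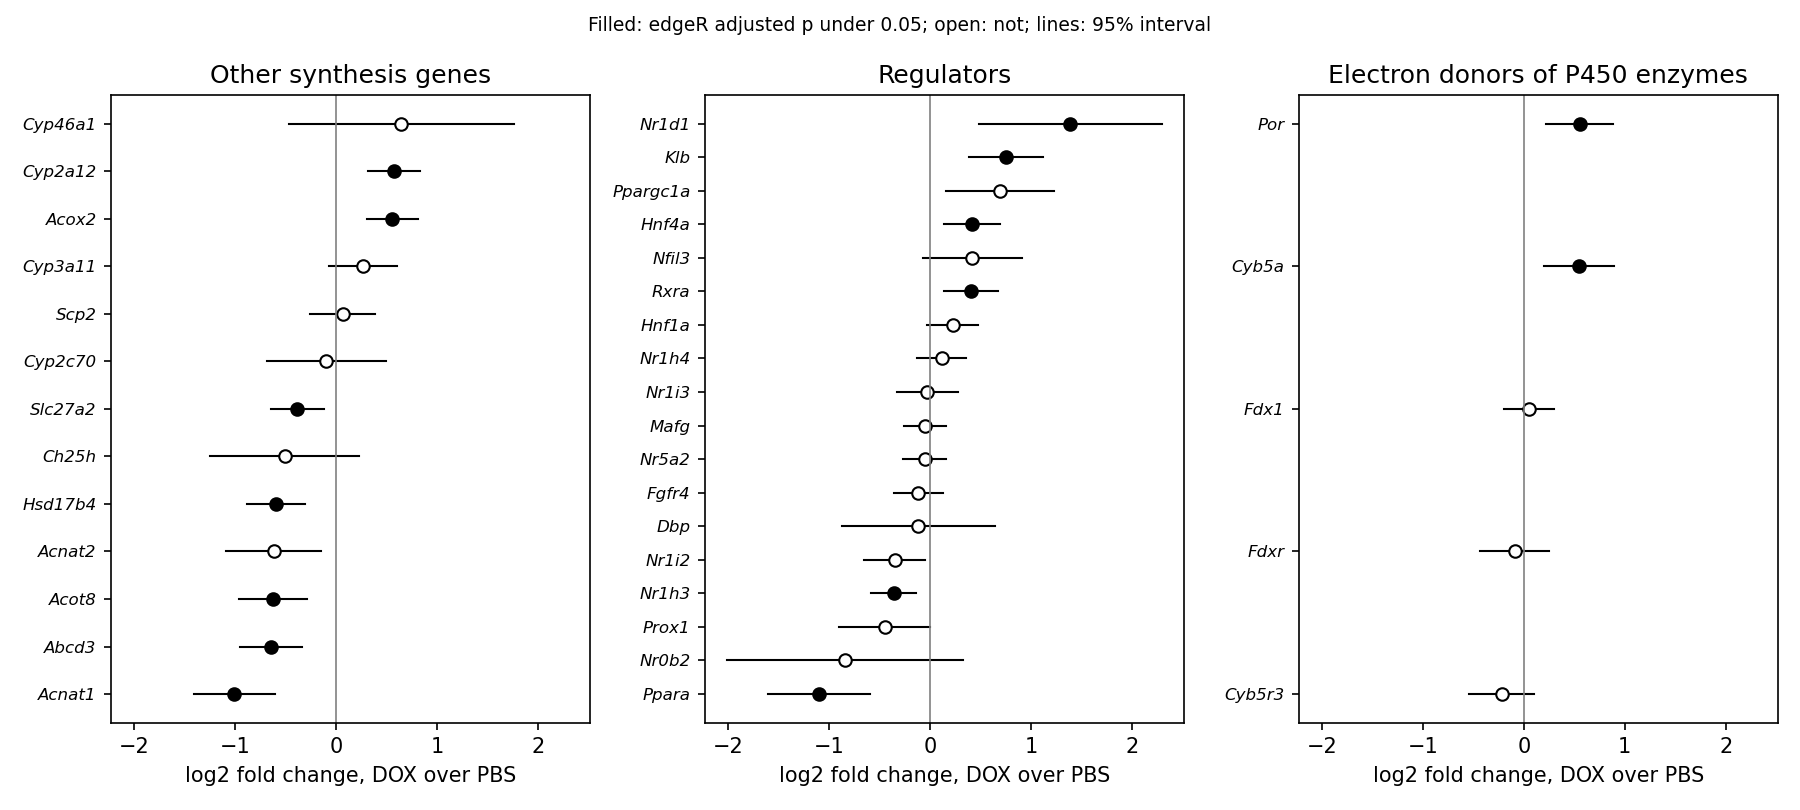
Log2 fold change (DOX over PBS, with 95% intervals) of the other synthesis genes, the regulators and the electron donors of P450 enzymes; filled circles passed an edgeR adjusted p of 0.05. Filled circles stand on the left for 5 of 13 synthesis genes and 2 of 18 regulators, and on the right for 2 and 4.

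Among 18 regulators of the pathway 4 rose and 2 fell, where 13.5% of all genes tested were called higher and 14.0% lower. Of the components of the bile acid feedback, Klb was called and Nr1h4, Nr0b2, Nr5a2 and Fgfr4 were not. FXR (Nr1h4) had a log2 fold change of 0.11 (95% interval -0.13 to 0.36; -0.04 when scaled by library size alone), and LRH-1 (Nr5a2) one of -0.05 (-0.26 to 0.16). SHP (Nr0b2) stood at 12.3, 11.5 and 28.4 CPM in PBS 1 to 3 and 5.69, 11.6 and 11.8 CPM in DOX 1 to 3, with overlap (log2 fold change -0.84, edgeR adjusted p = 0.243). Its difference rests largely on PBS 3, without which the log2 fold change was -0.30. Klb, the coreceptor for the intestinal hormone that restrains Cyp7a1, rose from 38.7, 29.9 and 32.9 CPM in PBS 1 to 3 to 47.1, 73.4 and 50.9 CPM in DOX 1 to 3 (log2 fold change 0.76, edgeR adjusted p = 0.00791). Its partner Fgfr4 did not pass (-0.12).

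Ppara, the fatty acid receptor, fell from 165, 187 and 230 CPM in PBS 1 to 3 to 70.2, 125 and 76.9 CPM in DOX 1 to 3 (log2 fold change -1.10, edgeR adjusted p = 0.00770), and like Klb it was called in all 14 alternatives. The oxysterol receptor Nr1h3 (-0.36) fell too, with an adjusted p of 0.0227 that became 0.0691, 0.0957 and 0.0842 on dropping PBS 2, PBS 3 or DOX 3. Hnf4a, a main activator of Cyp7a1 and Cyp8b1, rose (log2 fold change 0.42, adjusted p = 0.0292). Without PBS 1 the latter was 0.125, and PBS 2, DOX 1 and DOX 3 dropped in turn gave 0.117, 0.0633 and 0.0842. Rxra, the shared partner of FXR and other receptors, rose likewise (log2 fold change 0.41, adjusted p = 0.0303), with 0.102, 0.116, 0.0506 and 0.0707 on dropping PBS 1, PBS 2, PBS 3 or DOX 3. The clock repressor Nr1d1, which takes part in the daily rhythm of Cyp7a1, rose from 21.7, 13.8 and 15.7 CPM in PBS 1 to 3 to 54.5, 23.8 and 55.7 CPM in DOX 1 to 3 (log2 fold change 1.39, edgeR adjusted p = 0.0394). DOX 2 was closest to the PBS libraries for Nr1d1. The adjusted p of Nr1d1 became 0.0518, 0.124 and 0.130 on dropping PBS 1, 2 or 3, and 0.122 and 0.0847 on dropping DOX 1 or 3. The hour of sampling is not in the sources used here, and its part in these levels was not tested. Left-out libraries thus moved the number of regulators called higher between 1 and 5, and scaling by library size alone gave 1 higher and 4 lower.

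Transporters of bile acids and of other bile components were counted for comparison. Of 11 tested transporter genes 3 rose and 4 fell, where 13.5% of all genes tested were called higher and 14.0% lower. The number of transporters that fell ran from 1 to 5 when single libraries were left out: 1 without DOX 1 and 2 without PBS 1, PBS 3 or DOX 3.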

How the data were processed

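Liver RNA of 3 PBS and 3 DOX samples was sequenced (per the labels' protocols, with RNeasy extraction and SMARTER library preparation). The authors deposited raw counts per gene symbol and FPKM values for the same libraries. Counts divided by FPKM gave 1 gene length per gene in all libraries, so each deposited FPKM value is the count over that length and the library total. The submitters' processing notes list the builds GRCm38, mm10 and hg38 without a role; the aligner and counting program are not named, and strand handling is not given in the sources used here. The table held 0 columns of other samples. Same-group libraries differed by chi-square values of 30.0 to 83.9 per degree of freedom, far above sampling noise.

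Counts were tested with edgeR 4.0.16 (R 4.3.3; quasi-likelihood test, robust, group as the only term, filterByExpr with a minimum count of 10 and total of 15, TMM), with Benjamini-Hochberg adjustment over all 14681 genes and calls at 0.05. SE is the log2 fold change over the root of the F statistic, and intervals use the fit's degrees of freedom. Alternatives were DESeq2 1.42.0, 2 other scalings, 2 other filters, limma 3.58.1 on log2(FPKM + 1) and log2(FPKM + 0.1), the replicate block and each library left out, 14 in all. The procedure was tested on simulated data. The planted changes were larger than those of Cyp7a1, Cyp7b1, Akr1d1 and Baat, so the simulation does not cover changes of that size. The 10 genes and all lists were chosen with earlier results of these data known. Named were Bche, the 10 enzymes and, of each other list, at most 4 called genes per direction. Slc27a2, Nr0b2, Nr1h4, Nr5a2, Fgfr4, Fdx1, Fdxr, Cyp2c70, Spp1, Ptprc, Nkg7, Alb and Fabp2 were named after their values were seen. Positions are those of RefSeq for GRCm38.p6, exons those of GENCODE M21.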

Additional observations from a re-analysis of the deposited data

How the results depend on the processing

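Scaled by library size alone, 1028 genes were higher and 3429 lower in DOX (1975 and 2062 with TMM), and of the 10 enzymes 1 was higher and 3 were lower. Limma gave 917 higher and 3202 lower on log2(FPKM + 1), and 948 and 3227 on log2(FPKM + 0.1), with 1 enzyme higher and 4 lower in both; the FPKM values carry no composition factor. When single libraries were left out, the counts ran from 1208 to 2440 higher and from 1305 to 2348 lower over all genes, and from 1 to 2 higher and 1 to 3 lower among the 10 enzymes. No pairing by replicate number was detected: same-numbered libraries had correlations of deviations of 0.09, -0.07 and -0.13. Differently numbered ones ran from -0.13 to 0.19. With 3 libraries per group the check cannot exclude a pairing. With the replicate block 1 enzyme was higher and 2 were lower, and Nr0b2 passed (-0.79, adjusted p = 0.0472). Sign changes were few and all without a call: Hsd3b7 (0.0037 without DOX 3; -0.31 to 0.0037 over left-out libraries), Cyp2c70 (0.16 without DOX 3, range -0.33 to 0.16), Nr1h4 by library size alone (-0.042) and by limma with a pseudocount of 1 (-0.047) or 0.1 (-0.048), and the log2 ratio of Baat to Slc27a5, from -0.117 to 0.103 over left-out libraries, with 0.045 without DOX 1 and 0.103 without PBS 2. The cause of these changes was not tested. The lowest count of the 10 enzymes in a library was 96, that of Cyp8b1 in DOX 3.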
